A study of Mus musculus with 10 samples.

Results

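The genes of blood coagulation and fibrinolysis were examined in the livers of mice with acute liver failure. A list of 34 genes was matched by symbol, through the GENCODE mouse annotation, to the Ensembl identifiers of the expression tables, and 33 of the 34 were found among 38922 genes. Klkb1, plasma prekallikrein, was not analysed here. The genes were divided by their known source and role into 21 liver-secreted factors, which circulate in plasma, and 12 inducible and cell-bound regulators, which act on cell surfaces or come mainly from endothelial or myeloid cells.

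Liver RNA was sequenced from 10 wild type male C57BL/6N mice aged 6 weeks. Of these, 5 received an intraperitoneal injection of CD95-Ab, an antibody that activates the death receptor CD95 (FAS), at 0.5 µg/g body weight, and 5 received saline in an equivalent volume. All were sacrificed after 6 h, and each mouse gave 1 library of whole liver. Hepatocytes carry much CD95 and die by apoptosis after such an injection, so the comparison asks how hepatic gene expression differs in acute liver failure. In its time course, the paper places maximal liver damage, by serum alanine aminotransferase, at 6 h.

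Coagulation is a cascade of plasma proteases. Tissue factor on cells outside the blood stream binds factor VII, the cascade generates thrombin, and thrombin turns fibrinogen into fibrin. Antithrombin, heparin cofactor II and the protein C pathway restrain thrombin, and plasmin, made from plasminogen by the activators tPA and uPA, dissolves fibrin. The hepatocyte makes most of the plasma proteins of this system, which is why liver failure impairs clotting, whereas the receptors and activators sit largely on endothelial, myeloid and stromal cells.

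The values are estimated counts per gene. Totals were between 25965699 and 62097636 counts in saline mice and between 27480796 and 44962196 in CD95-Ab mice. CPM below are counts per 1000000 after scaling of the totals with TMM factors, and 3 counts, taken as the detection floor, correspond to 0.0556 to 0.121 CPM on these totals. A gene was called higher or lower when the quasi-likelihood test of edgeR gave a Benjamini-Hochberg adjusted p (FDR) of 0.05 or less over the 13719 genes tested. Log2 fold changes are CD95-Ab over saline, and SE is their standard error. The first principal component (68.8% of the variance) separated the groups, and on the second (11.5%) saline mouse 5 and CD95-Ab mouse 4 stood apart from the other mice. Deviations of these libraries from the other mice of their group correlated with transcript length across 13577 genes (Spearman -0.28 and -0.38). Length did not single them out, as the correlation was 0.37 for CD95-Ab mouse 5 and 0.24 for saline mice 1 and 3. With the GC content of the transcript it was 0.18 for saline mouse 5, 0.23 for CD95-Ab mouse 4 and -0.39 for CD95-Ab mouse 5. Because saline mouse 5 and CD95-Ab mouse 4 stood apart on the second component, results that rest on them are also given without them.

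The liver-secreted factors and the regulators moved in different ways. Of the 33 genes, all of which were tested, 13 were higher and 7 lower after CD95-Ab, where 25.4% of all tested genes were called higher and 22.0% lower (47.3% in either direction). Among the regulators, 10 of 12 were higher and 0 were lower, with a median log2 fold change of 2.10. These include F13a1 and Plat, at means of 0.148 and 0.265 CPM with saline and 17.1 and 1.65 with CD95-Ab. At such saline levels they passed the filter on low counts only through their CD95-Ab counts, so their calls were partly set by it. Both also count among the genes with a log2 fold change of 2 or more. Among the secreted factors, 3 of 21 were higher, all of them fibrinogen chains, and 7 were lower, with a median of -0.30. The count of lower genes was 11 without saline mouse 5 and CD95-Ab mouse 4 and 11 with DESeq2, and the count of higher genes stayed at 13 in both. The median over all tested genes was 0.006. A log2 fold change of 2 or more was reached by 6 genes, all regulators, against 6.59% of all tested genes, and no gene of the list fell by 2 or more, against 1.11%. The 2 groups of mice did not overlap for 9 of 12 regulators, all higher, and for 8 of 21 secreted factors. These 8 were 2 fibrinogen chains, which were higher, and 6 other factors, which were lower. Of all tested genes, 18.6% were without overlap and higher and 14.7% without overlap and lower, which is 4568 of 13719 in either direction.

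**Figure D1:**
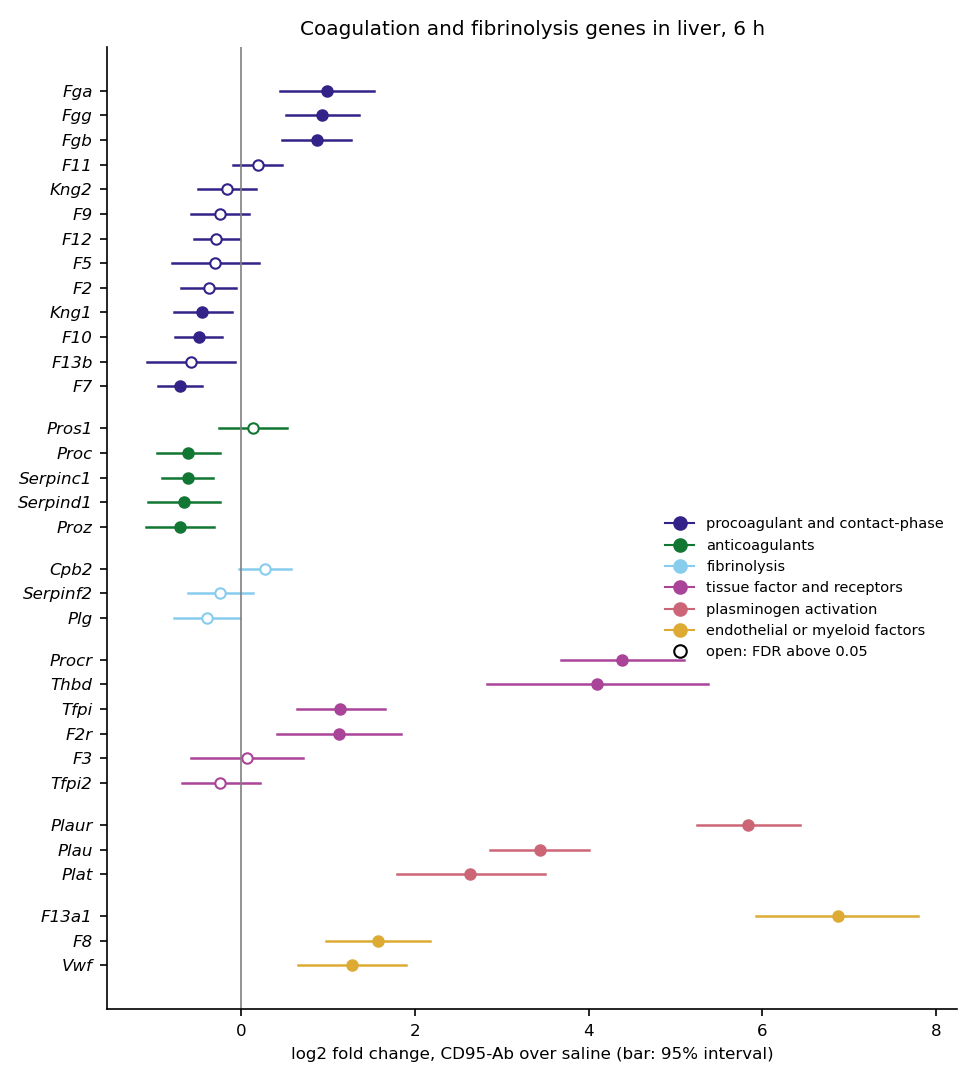
Log2 fold change of each of the 33 genes after CD95-Ab relative to saline (x axis), grouped by role and colour, with bars for the 95% interval (5 mice per group). Filled points passed the FDR of 0.05. The fibrinogen chains lie near 1, most other secreted factors between -0.71 and 0, and 10 of the 12 regulators lie above 1.

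The fibrinogen chains rose together. Fga encodes the Aα chain of fibrinogen and measured 4724, 6168, 5539, 5739 and 3377 CPM in saline mice 1 to 5, and 11116, 12301, 11196, 5643 and 10323 CPM in CD95-Ab mice 1 to 5. Fgb, for the Bβ chain, measured 4516, 6233, 4923, 5606 and 4644 CPM with saline and 9989, 10461, 10049, 7398 and 9354.5 with CD95-Ab. Fgg, for the γ chain, measured 3496, 4832, 4058, 4549 and 3446 CPM with saline and 7166, 9019.6, 9104, 5800.2 and 7664.5 with CD95-Ab. Every CD95-Ab mouse exceeded every saline mouse for Fgb and Fgg, whereas for Fga the groups overlapped because CD95-Ab mouse 4 lay below 2 saline mice. The log2 fold change was 0.99 ± 0.25 (SE) for Fga (FDR 0.00658), 0.87 ± 0.18 for Fgb (FDR 0.00204) and 0.93 ± 0.19 for Fgg (FDR 0.00201), with n = 5 mice per group in edgeR's test. Without saline mouse 5 and CD95-Ab mouse 4 these values were 1.01, 0.90 and 0.95.

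The proportions of the chains, which are joined in equal numbers in the secreted protein, showed no detectable difference. On the FPKM scale, which divides by transcript length, the ratio of Fga to Fgb had a median of 0.563 in saline mice (0.379 to 0.627) and 0.621 in CD95-Ab mice (0.393 to 0.651). The difference of the mean log2 ratio was 0.11 (exact permutation test, two-sided, p = 0.476, adjusted p = 0.536 over 15 ratios). The lowest ratio of each group was that of saline mouse 5 and of CD95-Ab mouse 4. The ratio of Fgg to Fgb had a median of 0.816 with saline and 0.863 with CD95-Ab (difference 0.05, exact permutation test, p = 0.421, adjusted p = 0.526).

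Fibrinogen thereby took up more of the coagulation transcripts. Its chains held 51.2% to 59.1% (median 57.2%) of the counts of all 33 genes in saline mice and 69.7% to 78.1% (median 76.2%) in CD95-Ab mice, and the groups did not overlap. As a share of all counts of the library, fibrinogen was 0.996% to 1.97% with saline and 1.60% to 3.21% with CD95-Ab. The other 30 genes held 0.896% to 1.47% with saline and 0.695% to 1.01% with CD95-Ab, so both of these ranges overlapped.

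The chains lie side by side on chromosome 3 (GRCm38, Fgg at 83007724-83015049, Fga at 83026076-83033627, Fgb at 83040141-83049863), and the sequences just before their starts are shown because the genes moved together. They are from RefSeq (GRCm38.p6), 5′ to 3′, with matches on either strand in capitals to TTGCNNAA (C/EBP), TGANTCA (AP-1) and CTGGGAA (core of the IL-6 response element), the last of which was added after the values had been seen.
Fga, chr3:83025903-83026075, + strand: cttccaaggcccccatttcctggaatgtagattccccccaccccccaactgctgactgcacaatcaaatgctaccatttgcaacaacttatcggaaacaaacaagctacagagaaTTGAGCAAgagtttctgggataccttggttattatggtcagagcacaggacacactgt
Fgb, chr3:83049864-83050113, - strand: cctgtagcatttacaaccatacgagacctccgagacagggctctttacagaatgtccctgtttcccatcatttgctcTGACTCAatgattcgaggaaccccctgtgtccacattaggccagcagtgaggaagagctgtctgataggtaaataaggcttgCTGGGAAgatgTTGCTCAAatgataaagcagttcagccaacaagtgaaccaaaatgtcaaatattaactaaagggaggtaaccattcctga
Fgg, chr3:83007474-83007723, + strand: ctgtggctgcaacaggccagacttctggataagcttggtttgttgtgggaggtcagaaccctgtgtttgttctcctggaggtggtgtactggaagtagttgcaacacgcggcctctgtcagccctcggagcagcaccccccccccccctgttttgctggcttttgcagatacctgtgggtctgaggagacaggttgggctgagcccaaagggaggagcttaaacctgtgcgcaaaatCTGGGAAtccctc
Fga held 1 C/EBP match that began 58 bases before the start. Fgb held an AP-1 match at 173 bases, the letters CTGGGAA at 91 bases and a C/EBP match at 80 bases before the start, none overlapping, and Fgg held CTGGGAA at 13 bases. Among 32851 promoters of the same table, 9.56% held TTGCNNAA within 250 bases before the start, 6.75% TGANTCA and 9.10% CTGGGAA. Among the listed genes, TTGCNNAA was also found in F9, F11 and Kng2, which were not called, and in Plaur and Procr. CTGGGAA was also found in F9 and Tfpi2, which were not called, and in Tfpi. The Fga stretch, at 173 bases, is shorter because it was kept outside the annotated transcripts, whereas the shares were counted within 250 bases. A match is a description of the letters only.

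The other procoagulant factors were lower or were not called. F7 encodes factor VII, the partner of tissue factor, and measured 102, 105, 89.8, 89.3 and 75.9 CPM with saline and 58.0, 53.5, 61.5, 53.2 and 57.1 CPM with CD95-Ab. Its groups did not overlap (log2 fold change -0.71 ± 0.12, FDR 0.000407, edgeR). F10, for factor X, which makes thrombin from prothrombin, ranged from 368 to 460 CPM (median 418) with saline and from 265 to 347.5 (median 286) with CD95-Ab (-0.49 ± 0.12, FDR 0.00671). Kng1, for kininogen, the cofactor of the contact phase, ranged from 1735 to 2465 CPM (median 2123) and from 1397 to 1654 (median 1557; -0.45 ± 0.15, FDR 0.0299). Both genes were without overlap between groups, but the call of Kng1 was lost when any of saline mice 1, 2 or 5 or CD95-Ab mice 2 or 5 was left out (log2 fold change -0.45, -0.39, -0.41, -0.41 and -0.44, FDR 0.0524 to 0.0761). Kng1 and Kng2 are close paralogs, so the share of reads given to each is uncertain.

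F2, for prothrombin itself, stood at the threshold. It ranged from 1243 to 1579.8 CPM (median 1442) with saline and from 896 to 1222 (median 1177) with CD95-Ab, and the groups did not overlap (-0.37 ± 0.14, FDR 0.0501). F12, which starts the contact phase, was without overlap as well (343 to 368 against 236 to 319 CPM, -0.29 ± 0.12, FDR 0.0634). F13b, the carrier subunit of factor XIII, had a log2 fold change of -0.58 ± 0.23 (FDR 0.0593), with saline mouse 5 at 64.1 CPM and the other saline mice between 128 and 158. Without saline mouse 5, F2 (-0.43, FDR 0.0328) and F13b (-0.75, FDR 0.00304) were called, F13b was also called without CD95-Ab mouse 3 (-0.66, FDR 0.0458), and F12 was called without CD95-Ab mouse 4 (-0.35, FDR 0.0373). F5, the cofactor in thrombin generation, gave -0.30 ± 0.23 (95% interval -0.80 to 0.20), F9 -0.24 ± 0.15 (-0.58 to 0.09), F11 0.19 ± 0.13 (-0.10 to 0.47) and Kng2 -0.16 ± 0.15 (-0.50 to 0.17), none of them called.

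**Figure D2:**
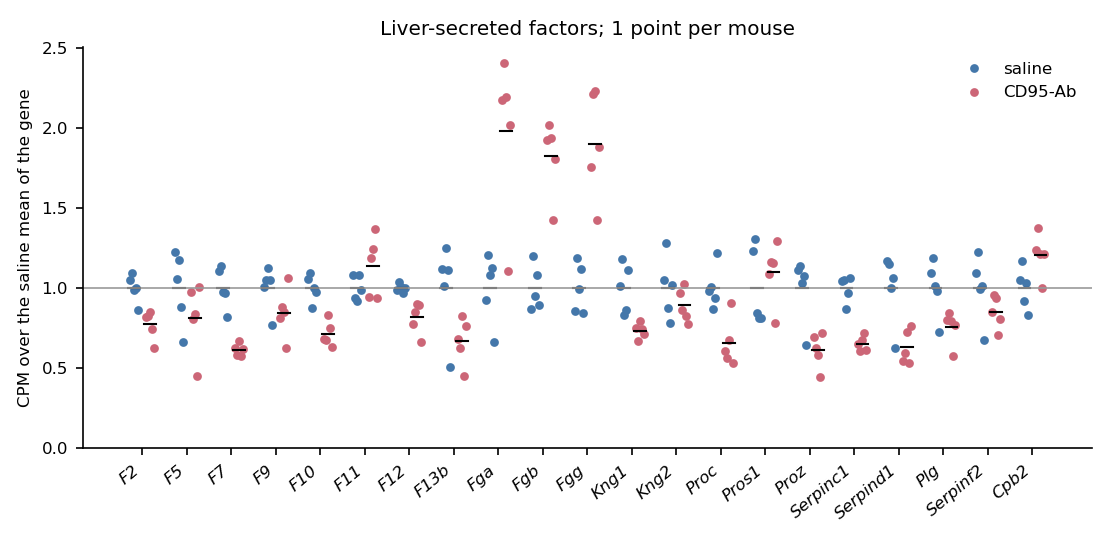
CPM of the 21 liver-secreted factors in each mouse, divided by the gene's saline mean (y axis), with short lines for the group means. Fgb and Fgg lie above all saline mice in every CD95-Ab mouse, and F2, F7, F10, F12, Kng1 and Serpinc1 lie below them.

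Of the 5 plasma anticoagulants, 4 were lower and 0 higher, with a median log2 fold change of -0.62. Of all tested genes, 22.0% were called lower. Serpinc1, antithrombin, measured 1781, 1787, 1483, 1651 and 1811 CPM with saline and 1101.5, 1026, 1152, 1221 and 1046 with CD95-Ab (-0.62 ± 0.13, FDR 0.00264, edgeR). Every CD95-Ab mouse was below every saline mouse. Serpind1, heparin cofactor II, a second thrombin inhibitor, measured 506, 498, 433, 459 and 269 CPM with saline and 236, 258, 313, 230.2 and 331 with CD95-Ab (-0.66 ± 0.19, FDR 0.0121). Saline mouse 5 lay inside the CD95-Ab range. Serpind1 lies within Pi4ka on the opposite strand, and whether the counting used strand is not given in the sources used here, so part of its count may belong to the other gene. Serpinc1 with Zbtb37, Plg with Slc22a3 and F5 with Gm16548 overlap only in part, also on opposite strands. Pi4ka had a mean count of 1064.3, and the lowest count of Serpind1 in any mouse was 5702. The neighbours Zbtb37, Slc22a3 and Gm16548 had mean counts of 91.5, 95.6 and 295.7. The lowest counts in any mouse were 28936 for Serpinc1, 29767 for Plg and 4271 for F5. Kng2 contains the pseudogene Gm6493.

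The vitamin K-dependent anticoagulants went the same way apart from Pros1. Proc, protein C, measured 393.5, 403, 349, 376 and 489 CPM with saline and 244.5, 227, 271, 364 and 213 with CD95-Ab (-0.61 ± 0.17, FDR 0.0102, edgeR). CD95-Ab mouse 4 alone lay inside the saline range. Proz, protein Z, the cofactor of the factor Xa inhibitor Serpina10, measured 219.5, 225, 204.5, 213 and 128 CPM with saline and 138, 124, 115.5, 87.4 and 142 with CD95-Ab (-0.71 ± 0.18, FDR 0.00717). Here saline mouse 5 fell within the CD95-Ab range. Pros1, protein S, the cofactor of activated protein C, gave 0.13 ± 0.18 (95% interval -0.26 to 0.53) and was not called. F7, F10 and Proz, all lower, are neighbours on chromosome 8 (GRCm38, 13026034-13035809, 13037308-13056676 and 13060914-13076026), and F11 lies elsewhere on that chromosome.

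None of the secreted fibrinolysis genes was called. Plg, plasminogen, ranged from 1519 to 2475 CPM (median 2118) with saline and from 1202 to 1763 (median 1664) with CD95-Ab (-0.40 ± 0.18, FDR 0.0786), and it was called without saline mouse 5 (-0.50, FDR 0.0251). Serpinf2, the main plasmin inhibitor, gave -0.24 ± 0.17 (FDR 0.283), and Cpb2, whose enzyme protects fibrin from plasmin, 0.27 ± 0.14 (FDR 0.122). Within each mouse, the FPKM ratio of Plg to Serpinf2 was 2.04 to 2.38 with saline and 1.79 to 2.03 with CD95-Ab, a difference of -0.18 in the mean log2 ratio with every CD95-Ab mouse below every saline mouse (exact permutation test, two-sided, p = 0.00794, the smallest that 5 against 5 can give, adjusted p = 0.0149 over 15 ratios).

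Aside from fibrinogen, 15 of 18 secreted factors had a log2 fold change below 0 (7 called, median -0.39). Over all tested genes the median was 0.006, and 22.0% were called lower. The hepatocyte markers, which include albumin, had a median of -0.59, with 5 of 10 lower and 0 higher, and their summed level was 110550 to 134544 CPM with saline and 52413 to 91377 with CD95-Ab. Alb measured 84727 ± 8839 CPM (SD, n = 5) with saline and 41434 ± 12103 with CD95-Ab (log2 fold change -1.03 ± 0.25, FDR 0.00529, edgeR). All 21 secreted factors had a log2 fold change above that of Alb. Alb was itself the lowest of the 10 hepatocyte markers, which ranged from -1.03 to 0.31, so a ratio to Alb is a ratio to the marker that fell most. The FPKM ratio of Fgb to Alb rose from a median of 0.0715 to 0.280 (exact permutation test, p = 0.00794, adjusted p = 0.0149), and that of Serpinc1 to Alb was 0.0196 and 0.0261 (p = 0.0476, adjusted p = 0.0714, same exact test). In RNA of whole liver, fewer cells of a type and less RNA per cell cannot be told apart, and the part of the hepatocyte markers in the lower secreted factors was not tested.

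Among the regulators, the receptors of the protein C pathway were higher in every CD95-Ab mouse. Thbd, thrombomodulin, the endothelial receptor that turns thrombin into an activator of protein C, measured 1.91, 0.445, 8.68, 3.27 and 3.19 CPM with saline and 40.05, 53.6, 104, 51.3 and 51.3 with CD95-Ab. The log2 fold change was 4.10 ± 0.58 (FDR 0.000152, edgeR), and 4.76 without saline mouse 3, the highest of its group. Procr, the endothelial protein C receptor, measured 0.753, 0.741, 0.225, 0.577 and 0.538 CPM with saline and 8.99, 9.49, 16.8, 15.9 and 8.66 with CD95-Ab (4.39 ± 0.32, FDR 1.81e-06). Neither gene had overlapping groups. Proc itself was lower, and the FPKM ratio of Thbd to Proc went from a median of 0.00270 with saline to 0.0973 with CD95-Ab, and that of Procr to Proc from 0.00149 to 0.0431 (log2 differences 5.20 and 5.11, each without overlap, exact permutation test, p = 0.00794, adjusted p = 0.0149).

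Tissue factor did not show such an increase. F3, which encodes it, measured 3.83, 4.48, 2.85, 4.08 and 4.30 CPM with saline and 2.95, 3.79, 7.96, 3.47 and 2.37 with CD95-Ab (log2 fold change 0.06 ± 0.30, 95% interval -0.58 to 0.71, FDR 0.873, edgeR). CD95-Ab mouse 3 alone exceeded the saline mice, and the value was -0.32 without that mouse and -0.04 without saline mouse 3. Tfpi, the inhibitor of the complex of tissue factor and factor VII, measured 3.06, 2.05, 4.11, 3.39 and 4.51 CPM with saline and 4.88, 6.91, 9.20, 8.11 and 8.79 with CD95-Ab (1.14 ± 0.23, FDR 0.00176). All CD95-Ab mice lay above the saline mice. Tfpi2, a related inhibitor and the most abundant regulator per length, gave -0.24 ± 0.20 (95% interval -0.68 to 0.21) and was not called.

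Ratios within a mouse set these changes side by side. The FPKM ratio of F3 to Thbd was 0.659 to 20.1 (median 2.70) with saline and 0.0930 to 0.153 (median 0.142) with CD95-Ab, without overlap (log2 difference -4.62, exact permutation test, p = 0.00794, adjusted p = 0.0149). The ratio of Tfpi to F3 had medians of 0.692 and 1.45 (1.04, p = 0.0317, adjusted p = 0.0529, same exact test), which did not pass the adjustment. F2r, the thrombin receptor PAR1, measured 9.62, 5.72, 23.6, 20.5 and 12.7 CPM with saline and 27.1, 34.3, 38.9, 21.6 and 35.1 with CD95-Ab. CD95-Ab mouse 4 lay below the highest saline mouse, so the groups overlapped (1.13 ± 0.33, FDR 0.0144, edgeR).

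**Figure D3:**
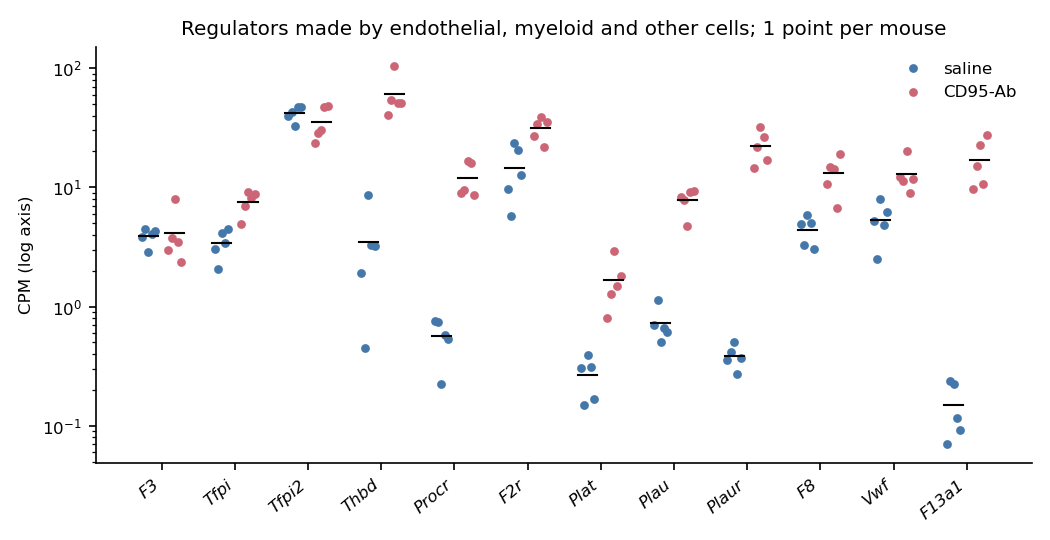
CPM of the 12 regulators in each mouse (y axis, logarithmic), with short lines for the group means. The CD95-Ab mice lie above all saline mice for 9 genes, and overlap with them for F3, Tfpi2 and F2r.

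The genes of plasminogen activation were all higher, without overlap. Plaur, the receptor that holds uPA on the cell surface, measured 0.353, 0.415, 0.507, 0.269 and 0.371 CPM with saline and 14.6, 21.6, 32.0, 26.6 and 16.9 with CD95-Ab. Plau, uPA itself, measured 0.706, 1.13, 0.507, 0.654 and 0.612 CPM with saline and 8.22, 7.77, 4.70, 9.08 and 9.23 with CD95-Ab. Plat, tPA, measured 0.306, 0.148, 0.394, 0.308 and 0.167 CPM with saline and 0.802, 1.27, 2.91, 1.49 and 1.79 with CD95-Ab. The receptor changed most and tPA least, with log2 fold changes of 5.84 ± 0.27 for Plaur (57.3-fold, FDR 1.59e-07), 3.44 ± 0.26 for Plau (10.8-fold, FDR 1.96e-06) and 2.64 ± 0.39 for Plat (6.24-fold, FDR 0.000208), all from edgeR. Saline mice had 7 to 20 counts of Plaur and 5 to 14 of Plat, so the sizes of these folds rest on few counts. The FPKM ratio of Plaur to Plau went from a median of 0.857 with saline to 4.75 with CD95-Ab, without overlap (log2 difference 2.39, exact permutation test, p = 0.00794, adjusted p = 0.0149).

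The stretches before the starts of Plaur and Procr, the regulators of these roles with the largest increases and a RefSeq entry (GRCm38.p6), are shown 5′ to 3′ with matches in capitals to TGANTCA (AP-1), TTGCNNAA (C/EBP), GGGCGG (Sp1) and GCGNGGGCG (EGR) on either strand.
Plaur, chr7:24462233-24462482, + strand: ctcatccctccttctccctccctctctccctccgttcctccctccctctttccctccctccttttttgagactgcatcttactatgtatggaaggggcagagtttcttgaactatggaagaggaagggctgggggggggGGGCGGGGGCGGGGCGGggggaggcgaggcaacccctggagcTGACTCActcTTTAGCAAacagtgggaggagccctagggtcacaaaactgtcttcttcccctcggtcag
Procr, chr2:155750967-155751116, + strand: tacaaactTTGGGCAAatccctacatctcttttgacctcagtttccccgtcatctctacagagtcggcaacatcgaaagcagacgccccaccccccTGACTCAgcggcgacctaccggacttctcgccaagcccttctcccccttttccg
The letters TGACTCA began 69 bases before the start of Plaur and 54 bases before that of Procr, and 173 bases before that of Fgb. In Plaur the matches to GGGCGG began 111, 105 and 100 bases before the start, and those at 111 and 105 bases overlapped the EGR match at 109 bases. TGANTCA was found in 7 of the 30 promoter entries of 26 listed genes, those of F2, F2r, F3, Fgb, Plaur, Procr and Tfpi2, of which F2, F3 and Tfpi2 were not called. Of all 32851 promoters, 6.75% held TGANTCA, 32.7% GGGCGG and 4.70% GCGNGGGCG. The Procr stretch is 150 bases long, whereas these shares were counted within 250 bases before the start. Among the listed genes, GGGCGG was also found in F3, F5, Pros1 and Tfpi2, which were not called, and in F2r and Tfpi. GCGNGGGCG was also found in Tfpi2. The NF-kappaB motif (3.90% of promoters) and the HNF4 motif CAAAGTCCA (0.384%) had no match in the entries of the listed genes, and the TATA box motif TATAAA (12.4%) matched in 1, Tfpi.

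The factors made mainly by endothelial or myeloid cells rose as well. F13a1, the catalytic subunit of factor XIII, which cross-links fibrin and is carried by macrophages and platelets, measured 0.0706, 0.237, 0.225, 0.115 and 0.0927 CPM with saline and 9.66, 15.1, 22.7, 10.7 and 27.3 with CD95-Ab (6.87 ± 0.43, FDR 6.67e-07, edgeR). With 3 to 8 counts in the saline mice, at or near the floor, the fold of 117 is imprecise. F8, the cofactor of factor IX, measured 4.96, 3.26, 5.80, 5.003 and 3.06 CPM with saline and 10.7, 14.8, 14.2, 6.74 and 19.04 with CD95-Ab (1.57 ± 0.27, FDR 0.000625). Vwf, which carries factor VIII and tethers platelets, measured 5.22, 2.52, 7.97, 4.81 and 6.17 CPM with saline and 12.2, 11.4, 20.2, 9.04 and 11.8 with CD95-Ab (1.27 ± 0.29, FDR 0.00332). No saline mouse reached a CD95-Ab mouse for any of these genes. F8 overlaps Fundc2 on the opposite strand, which makes its count uncertain. The subunits of factor XIII moved apart, and the FPKM ratio of F13a1 to F13b went from a median of 0.000816 with saline to 0.115 with CD95-Ab (exact permutation test, p = 0.00794, adjusted p = 0.0149). The ratio of F8 to Vwf gave no call (log2 difference 0.66, p = 0.143, adjusted p = 0.195, same exact test).

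**Figure D4:**
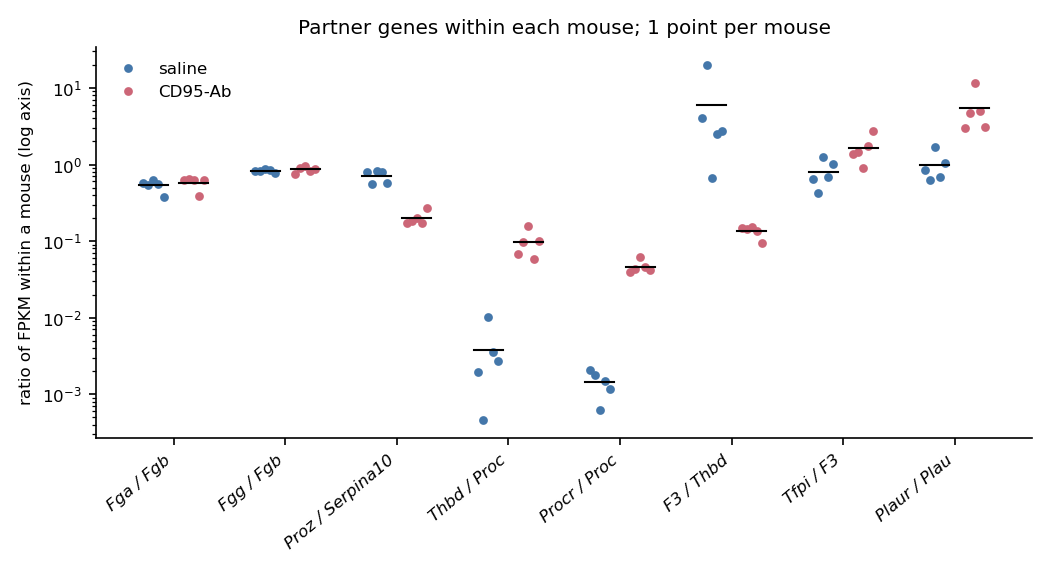
FPKM ratio of 8 pairs of genes within each mouse (y axis, logarithmic), with short lines for the group means. The fibrinogen chains keep similar ratios in both groups, the ratio of F3 to Thbd lies at 0.153 or less in CD95-Ab mice and at 0.659 or more in saline mice, and the ratio of Plaur to Plau is higher in every CD95-Ab mouse.

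Levels per length showed how far the regulators came up. In saline mice the order by FPKM began with Fgb (3395 ± 709, SD, n = 5), Fgg (2813 ± 610.3), Fga (1851 ± 542) and Kng1 (1135 ± 228), followed by Serpinc1 (838 ± 115.5), Plg (812 ± 213) and F2 (776 ± 146), of which the last 3 lay within 1 SD of each other, as did Fgb and Fgg. At the bottom were Plaur (0.296 ± 0.0777), Plat (0.112 ± 0.0466) and F13a1 (0.0400 ± 0.0235). In CD95-Ab mice the fibrinogen chains still led, with Fgb at 5847 ± 1209.8, Fgg at 5024 ± 1036.5 and Fga at 3493 ± 1153, and Plaur (15.8 ± 3.65) and Thbd (15.7 ± 5.56) came next after Tfpi2 (29.2 ± 7.48) among the regulators. In both groups the mean of every regulator was below that of every secreted factor, except that Pros1 (20.1 ± 4.73 with CD95-Ab) was below Tfpi2.

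Other genes of the pathway, a list of 24 of which 20 were tested, were called higher in 7 cases and lower in 3 (median log2 fold change 0.20). These shares, 35.0% and 15.0% of those tested, stood beside 25.4% and 22.0% of all tested genes. Thbs1, thrombospondin, a glycoprotein of platelets and matrix, measured 2.52, 0.889, 2.42, 1.69 and 2.10 CPM with saline and 178, 172, 233, 202 and 171 with CD95-Ab (6.62 ± 0.28, FDR 9.23e-08, edgeR). F2rl1, the protease receptor PAR2, went from 0.113 to 0.282 CPM with saline to 0.731 to 1.85 with CD95-Ab (3.02 ± 0.36, FDR 4.14e-05, on 4 to 12 counts in saline mice), and Anxa2, which binds plasminogen at the cell surface, from 5.10 to 7.57 to 24.3 to 56.1 (2.67 ± 0.20, FDR 2.03e-06). Pdpn, a ligand of a platelet receptor, gave 2.56 ± 0.66 (FDR 0.00766, on 9 to 21 counts in saline mice), and 1.40 without CD95-Ab mouse 3. Gas6, a vitamin K-dependent ligand, rose by 1.43 ± 0.24 on the log2 scale and Serpina10 by 1.13 ± 0.19 (FDR 0.000468 and 0.000440). Its cofactor Proz was lower, and the FPKM ratio of Proz to Serpina10 went from a median of 0.788 with saline to 0.181 with CD95-Ab without overlap (exact permutation test, p = 0.00794, adjusted p = 0.0149).

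Fn1, fibronectin, was called higher (0.58 ± 0.21, FDR 0.0388, edgeR), but the call was lost in 8 of the 10 fits that left out 1 mouse (0.51 to 0.57, FDR 0.0668 to 0.0869), those without any mouse other than saline mouse 3 and CD95-Ab mouse 4. Lower were Vkorc1, which recycles vitamin K (-0.63 ± 0.12, FDR 0.00131), Hrg, a plasma glycoprotein that binds plasminogen and heparin (-0.54 ± 0.12, FDR 0.00291), and Habp2, a plasma protease that can activate factor VII (-0.37 ± 0.11, FDR 0.0166). All 3 were without overlap between groups. Ggcx, the carboxylase that modifies the vitamin K-dependent factors, gave -0.32 ± 0.14 (FDR 0.0809) and was not called. Serpinb2, F2rl2, F2rl3 and Serpina5 had too few counts for the test across genes. By exact permutation tests on log2(CPM + 0.1), Serpinb2, a serpin, was higher by 1.06 (p = 0.00794, adjusted p = 0.0317 over 4 genes) and F2rl2, PAR3, by 1.42 (p = 0.0159, adjusted p = 0.0317), on levels of at most 0.283 and 0.828 CPM. With a pseudocount of 1 these differences were 0.18 and 0.45, so their size is not determined, and Serpinb2 had 0 to 2 counts in saline mice, under the floor of 3.

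Markers of several cell types were measured beside the regulators. The counts below stand beside 25.4% of all tested genes called higher. Of 10 markers of sinusoidal endothelium, 8 were higher, and their summed level was 79.4 to 169 CPM with saline and 243 to 462 with CD95-Ab. Of 11 neutrophil markers, 6 were tested and all 6 were higher (4.19 to 11.1 CPM with saline, 109 to 449 with CD95-Ab), and of 10 platelet markers, 6 were tested and 5 were higher (2.54 to 9.73 and 10.9 to 35.0 CPM). With saline, Mmp8, Gp9 and Gp5 averaged 0.135, 0.0566 and 0.0835 CPM, so they entered the test only through their CD95-Ab counts. Their calls were thus partly set by the filter on low counts, which limits the comparison with 25.4%. Of the untested neutrophil markers, Ly6g, Mpo and Elane overlapped between groups, and Camp and Ltf did not. Of 10 markers of Kupffer cells and macrophages, 3 were higher, and the sums overlapped (173 to 576 and 349 to 747 CPM). Stellate cell markers were higher for 8 of 10 (236 to 307 and 496 to 811 CPM), those of T and NK cells for 7 of 8 (1.58 to 6.05 and 8.48 to 13 CPM), and those of cholangiocytes for 4 of 5 (18.3 to 33.8 and 48.3 to 186 CPM). The 7 erythroid markers were all higher, from 135 to 325 CPM with saline to 1064 to 34013 with CD95-Ab. Every listed marker had counts in at least 1 saline mouse, and Gp6, a platelet receptor, was below 0.5 CPM in all 10 mice. The part of these cells and of blood in the higher regulators was not tested.

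**Figure D5:**
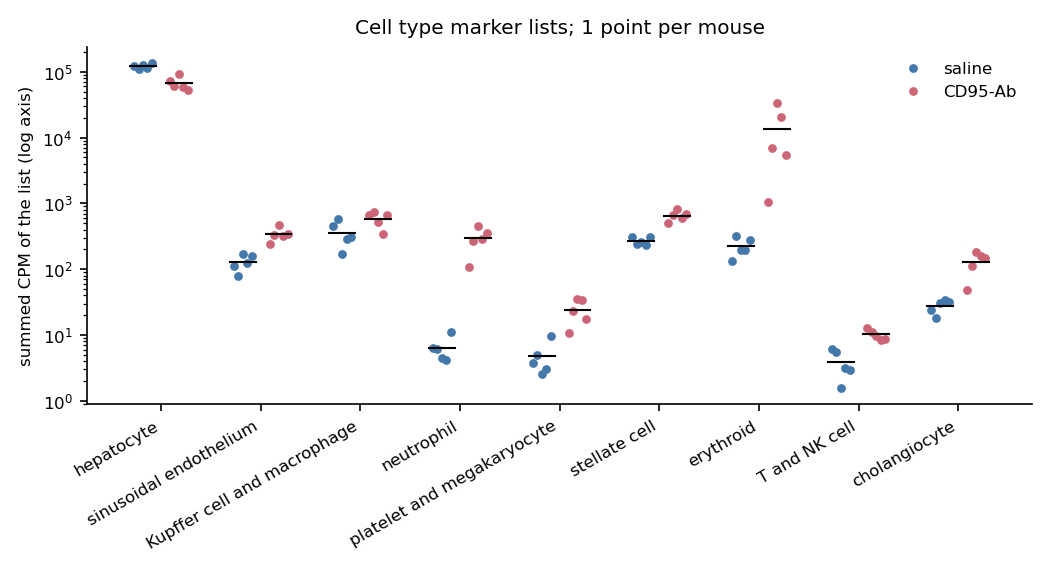
Summed CPM of each list of cell type markers in each mouse (y axis, logarithmic), with short lines for the group means. The hepatocyte sum is lower in every CD95-Ab mouse than in any saline mouse, the macrophage sums overlap, and the other 7 sums are higher in every CD95-Ab mouse.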

How the data were processed

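Total RNA of 10 mouse livers (500 ng each) was made into TruSeq libraries and read as paired ends. RSEM 1.2.19 was run by the authors, who deposited 1 table per mouse with expected counts and FPKM values of every gene. The deposited expected counts are not normalized and all were whole, so no rounding was needed. The deposited FPKM values are scaled by the authors for transcript length and library total, and were used here only for levels and ratios between genes. RSEM shares reads that fit several genes among them. The methods of the paper name a human Gencode release, whereas the identifiers in the tables are of mouse genes, and the genome build and mouse release were not given in the sources used here. Gene symbols and coordinates come from GENCODE M21 (GRCm38), which held 37606 of 38922 identifiers. Prekallikrein had no identifier that matched and was left out.

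Genes were kept by filterByExpr (minimum count 10), scaled by TMM, and compared with edgeR 4.0.16 (quasi-likelihood test, R 4.3.3). Genes low with saline, such as F13a1, Plat, F2rl1, Mmp8, Gp5 and Gp9, passed the filter only through their CD95-Ab counts. Their calls as higher were therefore partly set by the filter. The model held the treatment alone, and p-values were adjusted by Benjamini-Hochberg over all tested genes. Standard errors were derived from the F statistic. Single ratios and untested genes were compared by two-sided exact permutation tests (Python 3.11.15, scipy 1.17.1) with a pseudocount of 0.1 for CPM. On simulated counts, 13637 genes were run, and of 66, 65 and 63 genes given log2 fold changes of 1, 2 and 3, 57.6%, 100% and 100% were recovered, with 4% of calls false. Only 200 genes were changed there, in random directions, whereas 47.3% of tested genes were called in the data. These rates therefore need not hold for the data. Depth was 25965699 to 62097636 counts, and floors cover counting error only.

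The listed genes, roles, marker lists and motifs were chosen with earlier results of these data known. Values in every mouse were given for the 4 called genes of each role with the largest absolute log2 fold change and for the fibrinogen chains, and other pathway genes were named if among the 6 called with the largest change. Of the pathway list, 1 gene is not reported here, and its 2 ratios were counted only in the adjustment over 15. Further genes were named after their values were seen. Alternatives were DESeq2 1.42.0, the likelihood ratio test, other scaling factors, filters, prior count, threshold and pseudocount, a block for the replicate number, and fits that each left out 1 mouse. Leaving out saline mouse 5 and CD95-Ab mouse 4 together was chosen after seeing the data. Replicates are separate mice.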

Additional observations from a re-analysis of the deposited data

Results flagged for a closer look

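In 88 groups of 5 mice, 1 for each gene and treatment, 8 had a mouse whose gap to its nearest neighbour was more than 0.71 of the range of the group, the limit of Dixon's test for 5 values. Chance gives about 1 such group in 20. Saline mouse 5 had 128 CPM of Proz, with the other saline mice between 204.5 and 225. CD95-Ab mouse 3 was high in F3 (7.96 CPM, others 2.37 to 3.79), Thbd (104 CPM, others 40.05 to 53.6), Vwf (20.2 CPM, others 9.04 to 12.2) and Pdpn (6.41 CPM, others 0.525 to 1.24). CD95-Ab mouse 4 was low in Plg (1202 CPM, others 1606 to 1763) and Fn1 (910 CPM, others 1744 to 1997), and high in Vkorc1 (82.2 CPM, others 58.6 to 65.0).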

How the results depend on the processing

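The 10 higher regulators and the 3 fibrinogen chains stayed called under every alternative run, except that F2r was not called at an FDR of 0.01 and Plat was not tested with a minimum of 1 CPM in 5 mice. With each mouse left out in turn, 13 genes, 3 secreted factors and 10 regulators were higher, 6 regulators passed a log2 fold change of 2, and 0 regulators were lower. The number of lower genes, all secreted factors, was less stable. It was 7, and it was 11 with upper-quartile factors, 11 with DESeq2, 11 without saline mouse 5 and CD95-Ab mouse 4 (F2, F12, F13b and Plg gained in each), 4 at an FDR of 0.01, and 6 to 9 with 1 mouse left out. The cause was not tested. F2 was also gained with RLE factors (FDR 0.0458), F12 with plain totals (FDR 0.0394), and F13b without a filter (FDR 0.0492) and by the likelihood ratio test (FDR 0.0418). Without a filter Kng1 was lost (FDR 0.0515).

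The sign of F3 turned with upper-quartile factors (-0.02), with plain totals (-0.05), without saline mouse 3 (-0.04) and without CD95-Ab mouse 3 (-0.32), and fits without 1 mouse ran up to 0.22. That of Serpina5 turned with a pseudocount of 1 (-0.02), which also lowered Serpinb2 from 1.06 to 0.18 and F2rl2 from 1.42 to 0.45, and that of the ratio of Fga to Fgb without saline mouse 5 (-0.01, up to 0.25 with another mouse left out). None of the values whose sign turned was a call. The scaling alternatives shifted the median of all tested genes by at most 0.084 on the log2 scale.

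Replicate numbers are shared between groups, but the labels do not say that they pair the mice. Same-number mice correlated between -0.31 and 0.356 in their deviations, with a mean of 0.074 against -0.012 for other numbers. Of the mice, 2 of 5 saline and 3 of 5 CD95-Ab mice correlated best with their own number. These values do not settle whether the numbers pair the mice, and the main model held no block for them. Under such a block 5987 genes were called in place of 6495, Kng1 (FDR 0.0794), Habp2 (FDR 0.0501) and Fn1 (FDR 0.0713) were no longer called, F3 was -0.06 and Pdpn 1.96. Folds are imprecise for F13a1, Plat, Plaur, F2rl1 and Pdpn, which had 21 or fewer counts in every saline mouse.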
